A study of Mus musculus with 40 samples.

Results

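Expression of 10 core clock and clock output genes was examined in liver RNA of mice with a hepatocyte-specific deletion of Nampt (HNKO) and their WT littermates. The 10 genes, among 55487 in the count table, were taken by name: the activators Arntl (which encodes BMAL1), Clock and Npas2, the repressors Per1, Per2, Per3 and Cry1, the nuclear receptors Nr1d1 and Nr1d2 (REV-ERBα and REV-ERBβ), and the output gene Dbp. All 10 were among the 20297 genes that passed the filter on low counts. The mice were females on the C57BL/6JBomTac background, all with floxed Nampt alleles, and HNKO mice also carried Cre driven by the albumin promoter, which is active in hepatocytes. Whole liver was sequenced after 3, 6, 12 or 21 days, which the labels enter as age and which the study's methods describe as days of feeding with a purified control diet in adult mice. There were 5, 4, 5 and 5 WT libraries and 5, 5, 6 and 3 HNKO libraries at days 3, 6, 12 and 21, each from 1 mouse. The hour of liver collection in this time course is not given in the sources used here.

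The circadian clock of mammalian cells is a feedback loop of transcription. BMAL1 pairs with CLOCK or its paralog NPAS2 and activates the Per, Cry, Nr1d and Dbp genes through E-boxes, the PER and CRY proteins then block that activation, and the REV-ERB proteins repress Arntl, Npas2 and Clock through ROR elements, so that the activators and Dbp peak at opposite times of day. In liver the loop drives daily rhythms in metabolic genes, among them Nampt, whose product makes the NAD used by the deacetylase SIRT1, itself a known modulator of clock proteins.

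RefSeq held 13 promoters for 9 of the 10 genes (all but Per2), each from 250 bases before to 50 bases after a transcription start (GRCm38.p6). They were searched on both strands for the elements of the loop. These are the E-box CACGTG, the E-prime box CACGTT, which reads AACGTG on the other strand, the D-box TTANGTAA bound by DBP and its relatives, the RORE and the cAMP response element TGACGTCA. Distances are to the first base of a match in the direction of transcription. The E-box stood in the promoters of Per1 (166 bases before the start) and Cry1 (60 bases before it), and in 7.15% of all 32851 mouse promoters. The E-prime box stood in those of Cry1 (79 bases before the start) and Nr1d1 (28 bases before it), and in 4.68% of all promoters. The D-box stood 205 and 158 bases before the Per3 start and in 2.32% of all promoters. The RORE began at base 27 from the second Arntl start, and the element was in 0.384% of all promoters, and the cAMP response element, held by 1.79% of all promoters, was in none of the 13. The stretches that hold a match are shown because Arntl was opposed to Per1, Per3 and Nr1d1 across mice, and because Cry1 was the gene called between the genotypes, as described further on. Capitals mark the matches, and each runs in the direction of transcription (chr7:113207528-113207557, plus strand for Arntl, chr11:69098699-69098948, plus strand for Per1, chr4:151044666-151044915, minus strand for Per3, chr10:85185055-85185304, minus strand for Cry1 and chr11:98775378-98775627, minus strand for Nr1d1).
Arntl: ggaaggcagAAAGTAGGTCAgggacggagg
Per1: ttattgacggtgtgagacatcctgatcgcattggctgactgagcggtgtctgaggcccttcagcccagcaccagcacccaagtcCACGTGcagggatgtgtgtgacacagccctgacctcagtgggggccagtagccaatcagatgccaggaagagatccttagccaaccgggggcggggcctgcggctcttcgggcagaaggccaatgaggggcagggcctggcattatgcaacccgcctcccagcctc
Per3: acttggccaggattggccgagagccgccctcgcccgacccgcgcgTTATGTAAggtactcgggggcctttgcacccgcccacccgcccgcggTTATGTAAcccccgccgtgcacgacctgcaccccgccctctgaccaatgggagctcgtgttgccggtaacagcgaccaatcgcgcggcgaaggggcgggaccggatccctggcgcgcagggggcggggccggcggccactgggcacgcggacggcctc
Cry1: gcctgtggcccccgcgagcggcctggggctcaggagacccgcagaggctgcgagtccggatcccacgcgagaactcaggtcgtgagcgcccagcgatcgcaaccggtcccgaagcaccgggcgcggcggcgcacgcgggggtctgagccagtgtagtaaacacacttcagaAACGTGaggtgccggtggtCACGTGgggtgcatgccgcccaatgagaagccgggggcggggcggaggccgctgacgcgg
Nr1d1: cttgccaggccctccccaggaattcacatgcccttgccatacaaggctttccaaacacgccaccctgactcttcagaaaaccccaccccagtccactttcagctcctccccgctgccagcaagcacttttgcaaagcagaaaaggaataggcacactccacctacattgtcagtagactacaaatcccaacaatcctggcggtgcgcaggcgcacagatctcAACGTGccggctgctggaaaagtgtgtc
A match is a description of the sequence and not evidence of binding. In GRCm38 the genes, all protein-coding, lie on the plus strand with Arntl at chr7:113207465-113314126, Npas2 at chr1:39193731-39363236, Per1 at chr11:69095217-69109960 and Dbp at chr7:45705088-45710203, and on the minus strand with Clock at chr5:76209868-76304792, Per2 at chr1:91415982-91459324, Per3 at chr4:151003652-151044665, Nr1d1 at chr11:98767932-98775333 and Nr1d2 at chr14:18204054-18239127.

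Total counts per library ran from 16151037 to 64181492 (median 26466478.5) over the 38 libraries used. HNKO libraries 17 and 18 of day 21, which the labels mark as failed in quality control, were left out. Nampt itself was at 5.84 to 7.28 log2 CPM (read counts scaled to library size) in WT and 4.92 to 6.36 in HNKO libraries, and was lower in HNKO by 0.83 ± 0.12 on the log2 scale over the mean of the 4 days (SE, adjusted p = 2.6e-06, edgeR). The summed CPM of 5 cholangiocyte markers was 106 to 736 in HNKO and 34.2 to 48.9 in WT libraries, without overlap, and that of 6 hepatocyte markers was 53228 to 117468 in HNKO and 83215 to 141816 in WT. Summed macrophage markers were at 261 to 689 and 208 to 558, stellate markers at 386 to 859 and 451 to 561, leukocyte markers at 42.7 to 120 and 27.8 to 77.8, and endothelial markers at 415 to 514 and 423 to 537 CPM in HNKO and WT libraries. These ranges are over all 4 days. Among the libraries of day 6, the hepatocyte, stellate and leukocyte sums did not overlap between genotypes either. The leukocyte sums also did not overlap at day 21 (49.1 to 79.0 CPM in HNKO and 29.7 to 44.9 in WT). No marker of these lists was at 0 in every library of a genotype. In whole liver, fewer cells of a type and less RNA per cell cannot be told apart.

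The 10 genes differed widely in level and in how far mice of 1 group spread. Per kilobase of exon, the mean levels over the 38 libraries were, in log2 RPKM, 4.45 for Nr1d2, 4.40 for Nr1d1, 3.44 for Dbp, 2.67 for Clock, 2.13 for Per1, 2.07 for Per2, 2.04 for Per3, 0.75 for Cry1, 0.36 for Arntl and -1.42 for Npas2. Dbp had the largest spread. Its highest library was 71.9-fold above its lowest, and the SD of its log2 CPM within groups was 1.47, against a median of 0.321 over all tested genes. Only 75 of the tested genes varied more within groups. Npas2 (SD 1.36, 99.5th percentile), Per3 (1.22, 99.2nd percentile), Arntl (1.08, 98.6th percentile), Per1 (1.0, 97.9th percentile) and Per2 (0.80, 94.5th percentile) were also in the upper part of the distribution. Nr1d1 (0.48), Nr1d2 (0.41), Clock (0.38) and Cry1 (0.35) lay between the 54.8th and the 70.4th percentile.

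**Figure D1:**
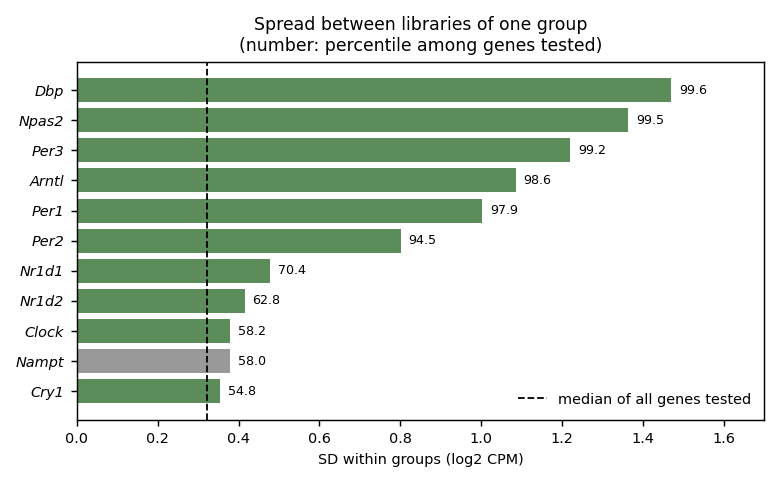
Bars give the SD of log2 CPM within the 8 groups of genotype and day for each clock gene and for Nampt, the deleted gene, and the dashed line marks the median of all tested genes. The number at each bar is the percentile among all tested genes: Dbp, Npas2, Per3, Arntl and Per1 lie at the 97.9th or higher, while Cry1 lies at the 54.8th.

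Arntl and Dbp show how mice of the same genotype and day differed. In WT livers at day 6, Arntl was at 1.27, 1.22, 4.59 and 4.76 log2 CPM in libraries 8, 10, 27 and 28, and Dbp at 7.32, 7.06, 2.84 and 3.99. The 2 libraries low in Arntl were thus the 2 high in Dbp, and this split followed the library numbers, which run through the groups in libraries 1 to 21 and again in libraries 22 to 41. What the 2 number ranges stand for is not given in the sources used here. At day 12, WT Arntl was at 4.16, 5.02, 1.27, 4.28 and 4.69 in libraries 14, 15, 16, 33 and 34, and WT Dbp at 3.20, 2.78, 7.51, 3.05 and 1.57. Library 16 stood apart from the other 4 in both genes, in opposite directions. Among HNKO livers at day 6, Arntl was at 2.68, 1.73, 4.88, 2.83 and 2.43 in libraries 6, 7, 29, 30 and 31, and Dbp at 6.02, 6.79, 1.35, 5.97 and 6.29. Here library 29 was the one apart, with the lowest Dbp value of the series. Nampt in these libraries was within the range of their labelled genotype, at 7.24 in WT library 16 and 5.48 in HNKO library 29. Their total counts, 23572861 and 34707720, were inside the range of the others.

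The remaining groups were tighter. WT Arntl at day 3 was at 4.51, 3.43, 4.25, 3.98 and 4.50 and HNKO Arntl at 4.63, 4.25, 4.32, 3.55 and 4.28 log2 CPM, so that the groups overlapped almost fully. At day 21 WT Arntl was at 2.13, 1.89, 1.56, 2.67 and 3.15 and HNKO Arntl at 3.43, 1.92 and 1.76. HNKO Arntl at day 12 had its lowest value at 1.56, its median at 3.06 and its highest value at 4.06. Dbp at day 21 was at 6.37, 6.34, 6.58, 5.79 and 5.98 in WT and at 5.0, 6.13 and 6.28 in HNKO livers. All WT libraries and 2 of the 3 HNKO libraries were above its mean of 5.02 over the 38 libraries, and HNKO library 37 was at that mean. In HNKO livers at day 12, Dbp ran from 3.64 to 6.69 with a median of 5.86.

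**Figure D2:**
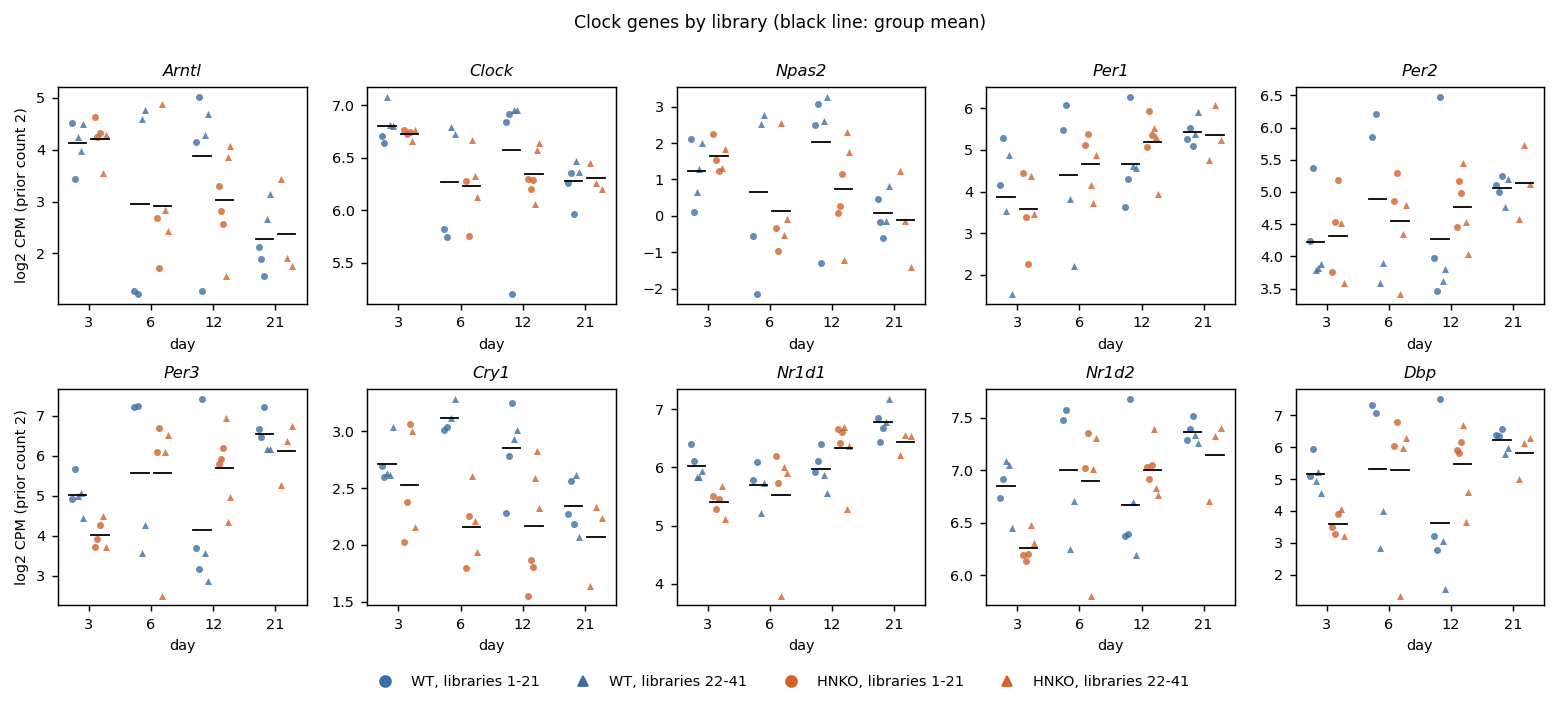
Each panel plots 1 gene as log2 CPM (vertical axis) by day (horizontal axis), with 1 point per library, blue for WT and orange for HNKO, circles for libraries 1 to 21 and triangles for libraries 22 to 41. Black lines are group means. WT library 16 at day 12 lies below its group in Arntl, Clock and Npas2 and above it in Per2, Per3 and Dbp, and HNKO library 29 at day 6 lies below its group in Per3, Nr1d1, Nr1d2 and Dbp.

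The clock genes moved together from mouse to mouse within groups, in 2 opposed sets. After the mean of its genotype and day was taken from each value, 35 of the 45 gene pairs were correlated over the 38 libraries (Pearson's r, adjusted p under 0.05, 100000 permutations of libraries within groups, two-sided, Benjamini-Hochberg over the 45 pairs). All 3 pairs among the activators Arntl, Clock and Npas2 were positive, with r from 0.840 to 0.931. All 18 pairs of an activator with a Per gene, an Nr1d gene or Dbp were negative, with r from -0.953 to -0.474. Of the 15 pairs among Per1, Per2, Per3, Nr1d1, Nr1d2 and Dbp, 14 were positively correlated. The exception was Per1 with Nr1d1 (r = 0.257, adjusted p = 0.108), for which Spearman's rho was 0.445 (adjusted p = 0.00975, permutation test). None of the 9 pairs with Cry1 passed, with r from -0.322 to 0.133 and a lowest adjusted p of 0.0958 (permutation test).

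**Figure D3:**
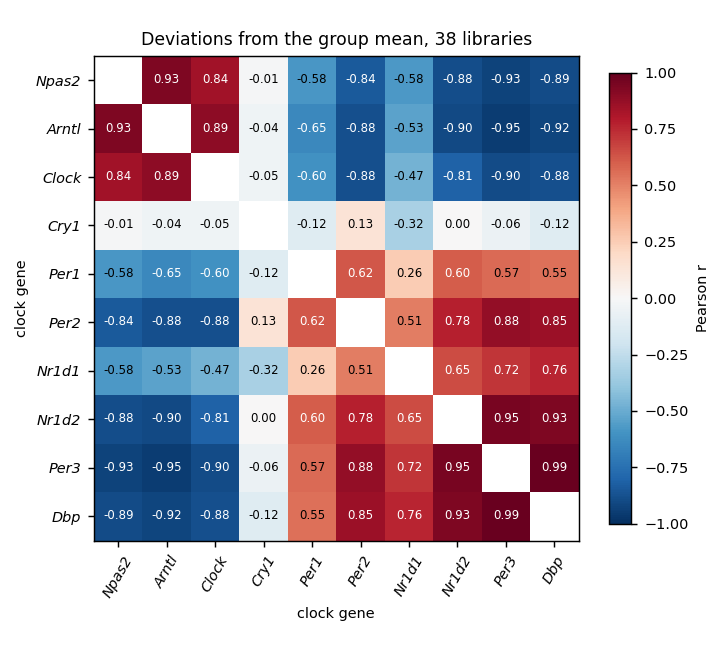
The heat map gives Pearson's r, printed in each cell, for every pair of clock genes (both axes) over the deviations of 38 libraries from their group means, from blue at -1 to red at 1. Npas2, Arntl and Clock form a red block, they are blue against the Per genes, the Nr1d genes and Dbp, and the row of Cry1 is pale.

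The closest pair was Per3 with Dbp (r = 0.988, rho = 0.982), which kept r = 0.979 without the 2 libraries farthest from the median of Per3. Within libraries 1 to 21 and within libraries 22 to 41, r was 0.987 in both. Arntl and Per3 were the most opposed pair (r = -0.953, rho = -0.950, and r = -0.947 without the 2 farthest libraries). For Arntl with Dbp, r was -0.918 and rho was -0.917, each with p = 1e-05, the smallest these permutations can give (adjusted p = 2.81e-05), and r was -0.896 without the 2 farthest libraries. It was -0.941 and -0.874 within the lower and higher library numbers, -0.939 over the 19 WT and -0.892 over the 19 HNKO libraries. Both genotypes thus held the opposition of Arntl and Dbp, and whether its strength differed between them was not tested. Arntl with Npas2 gave r = 0.931, rho = 0.881 and, without the 2 farthest libraries, r = 0.901. When the label number range was also taken from the values, 27 pairs passed. Of the alternatives tried, none turned the sign of a pair that passed.

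A single axis held most of this variation. The leading principal component of the 10 standardised genes took 72.0% of the variance within groups, with Arntl, Clock and Npas2 on its negative and the Per genes, Nr1d1, Nr1d2 and Dbp on its positive side. Cry1 had a loading of -0.0154 there and of 0.835 on the second component, which took 12.4%. The difference of the log2 CPM of Dbp and Arntl in a library, centred on its mean over the 38 libraries and not within groups, ran from -5.28 in HNKO library 29 to 4.49 with no gap between neighbouring libraries above 0.94. Over all libraries the values thus ran without a wide gap, while single groups could be split, as WT livers at day 6 were, at -3.50 and -2.52 against 4.09 and 4.29. On that difference, a straight line took 5.3% of the variance of Cry1 and a curve with a square term 22.0%, while for Clock the shares were 75.8% and 86.7% and for Nr1d1 43.2% and 56.7%. These shares are descriptions of the 38 libraries, and Arntl and Dbp make up the difference itself.

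Outside the 10 genes, those most like Arntl in their deviations over the 38 libraries were Ypel2 (r = 0.942), St5 (0.942), Lgalsl (0.940), Slc45a3 (0.939) and Asap2 (0.936). Those most like Dbp were Tef (r = 0.967), a PAR bZIP factor of the same family as DBP, Cry2 (0.950), the paralog of Cry1, then Pcsk4 (0.942), Ciart (0.923), a repressor of CLOCK and BMAL1, and Narf (0.915). All 10 were chosen for this likeness, so their r carries no test.

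Nampt moved with several of the clock genes in both genotypes, although it was lower in HNKO livers. Over the 19 WT libraries, its deviations were correlated with 8 of the 10 genes (adjusted p under 0.05, permutations within groups, two-sided, Benjamini-Hochberg over 20 relations). The closest were Per3 (r = 0.948, rho = 0.882), Dbp (r = 0.936, rho = 0.874), Npas2 (r = -0.933, rho = -0.904), Per2 (r = 0.927, rho = 0.828) and Arntl (r = -0.924, rho = -0.821). Without the 2 libraries farthest from the median of Nampt, the WT r with Arntl was -0.854 and with Dbp 0.869. Over the 19 HNKO libraries, 5 genes passed by Pearson's r, among them Clock (r = -0.835, adjusted p = 0.00467, permutation test), Arntl (r = -0.702) and Dbp (r = 0.658, adjusted p = 0.0492), and 3 passed by Spearman's rho. Dbp was not among the 3 (rho = 0.551, adjusted p = 0.0566, permutation test). Per3 passed neither test in HNKO livers (adjusted p = 0.0523 for r and 0.0595 for rho). Without the 2 farthest libraries, the HNKO r with Arntl was -0.658 and with Dbp 0.546. Cry1 was not correlated with Nampt in either genotype (r = 0.0181 in WT, -0.314 in HNKO). The difference between the genotypes in these relations was not tested.

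**Figure D4:**
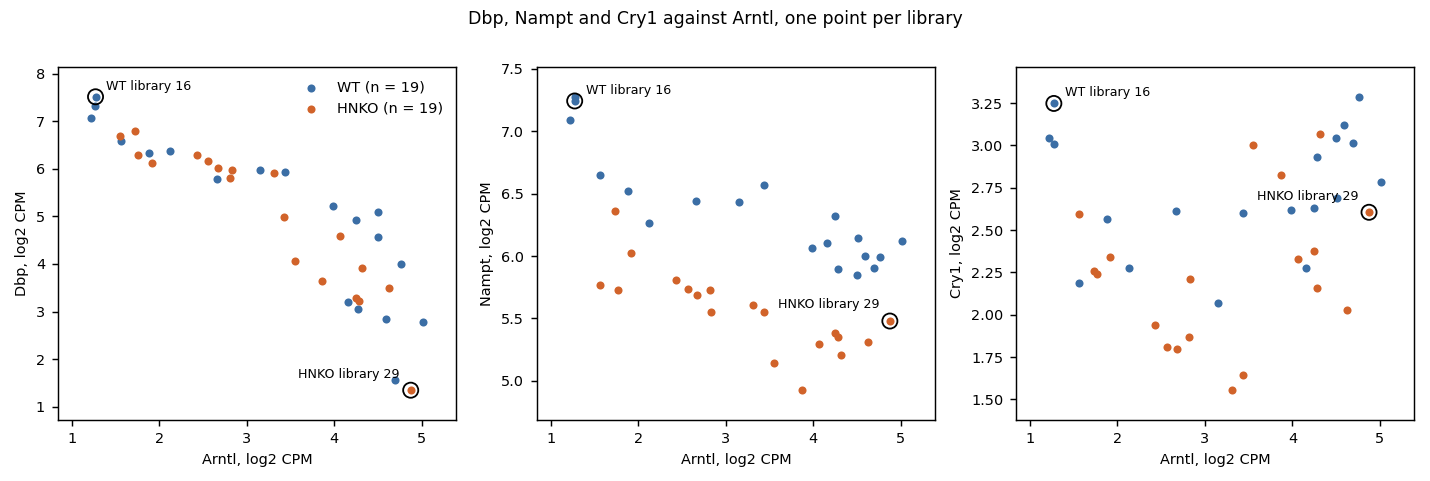
Arntl in log2 CPM is on the horizontal axis of each panel, and Dbp, Nampt and Cry1 in log2 CPM are on the vertical axes, with 1 point per library (19 WT in blue, 19 HNKO in orange). Dbp and Nampt fall from left to right in both genotypes, HNKO points lie below WT points of like Arntl level for Nampt, Cry1 shows no slope, and the ringed WT library 16 and HNKO library 29 sit at opposite ends of Arntl and Dbp.

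The comparison of HNKO with WT asks whether the loss of Nampt from hepatocytes came with altered clock gene levels at each day. By the quasi-likelihood test of edgeR over all 20297 genes with Benjamini-Hochberg adjustment, 0, 1, 1 and 0 of the 10 genes were called at days 3, 6, 12 and 21, where 4.66%, 12.8%, 7.82% and 3.12% of all tested genes were called. The single gene called was Cry1 at both days. Over the mean of the 4 days, Cry1 was again the 1 gene called, and 36.4% of all tested genes were. DESeq2 called the same numbers of the 10 genes. At an unadjusted p under 0.05 there were 2, 1, 2 and 0 of the 10 genes by day, against 20.9%, 26.6%, 24.5% and 18% of all tested genes, and 1 for the mean, against 44.8%. The median log2 fold change of the 10 genes was -0.34, -0.30, 0.13 and -0.09 by day, against 0.01, -0.01, 0.00 and -0.01 over all tested genes. The median SE of a log2 fold change was 0.49 to 0.59 for the 10 genes and 0.19 to 0.23 for all tested genes by day. The SE of Cry1, Clock, Nr1d1 and Nr1d2 was close to that of all genes, at 0.20 to 0.30, and that of the other 6 genes was 0.47 to 0.93.

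**Figure D5:**
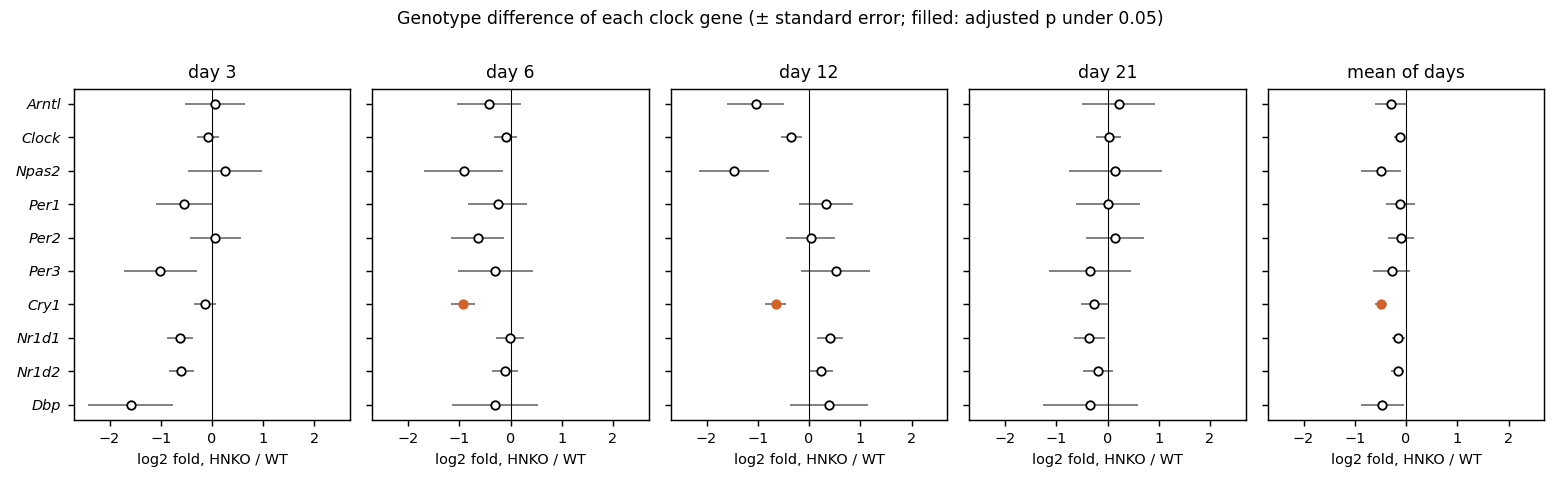
The log2 fold change of HNKO over WT (horizontal axis, edgeR) with its standard error is shown for each clock gene (vertical axis) at days 3, 6, 12 and 21 and for the mean of the days, and filled points have an adjusted p under 0.05. Cry1 is filled at days 6 and 12 and for the mean, and the bars of Dbp, Npas2, Per3 and Arntl are longer than those of Cry1.

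Cry1, whose product represses CLOCK and BMAL1 and was the steadiest of the 10 genes within groups, was lower in HNKO livers. The gene (ENSMUSG00000020038.10) lies on the minus strand at chr10:85131700-85185064 of GRCm38. At day 6 it was at 3.01, 3.04, 3.12 and 3.29 log2 CPM in WT and at 1.80, 2.26, 2.60, 2.21 and 1.94 in HNKO livers. Every HNKO library was below every WT library. The fold change on the log2 scale was -0.93 ± 0.23 (SE, adjusted p = 0.00657, edgeR), or 52.3% of WT (95% confidence interval 38.3 to 71.6%). Among the 10 genes at that day only Cry1 had libraries that did not overlap, and 4.68% of all tested genes had HNKO libraries all below the WT libraries. A two-sided exact permutation test gave p = 0.0159, the smallest that 5 against 4 libraries allow.

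At day 12 Cry1 was at 2.28, 2.79, 3.25, 2.93 and 3.01 in WT livers, and HNKO livers had their lowest value at 1.55, their median at 2.10 and their highest value at 2.82. The groups overlapped, with 3 of 6 HNKO libraries below all WT libraries. The fold change on the log2 scale was -0.66 ± 0.21 (adjusted p = 0.0458, edgeR), or 63.5% of WT (47.9 to 84.2%), and the exact permutation test gave p = 0.0390. At day 3 the WT libraries were at 2.69, 2.60, 2.63, 2.62 and 3.04 and the HNKO libraries at 2.03, 2.38, 3.07, 3.00 and 2.16. Cry1 was at 90.9% of WT (67.6 to 122%, adjusted p = 0.773, edgeR) at that day. At day 21, with WT at 2.28, 2.56, 2.19, 2.61 and 2.07 and HNKO at 1.64, 2.34 and 2.24, it was at 83.7% of WT (59.1 to 119%, adjusted p = 0.661, edgeR).

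Over the mean of the 4 days, Cry1 was at 70.9% of WT (60.7 to 82.9%), a log2 fold change of -0.50 ± 0.11 (adjusted p = 8.83e-04, edgeR). Within the 2 ranges of library numbers it was lower in HNKO livers in 7 of 7 comparisons, by mean differences of -1.03 to -0.16 in log2 CPM. The calls at day 6 and for the mean held without any 1 of the 38 libraries. The day 12 call was lost without any 1 of WT libraries 15, 16, 33 and 34 and HNKO libraries 11, 12, 13 and 36 of that day (adjusted p of 0.0532 to 0.122) and without any 1 of 8 libraries of other days (0.0504 to 0.0557). It was also lost with no filter (0.0663), with at least 10 counts in every library (0.0541), with all 40 libraries (0.0800) and in the fit of the 2 groups of the day alone (0.123), at log2 fold changes of -0.65 to -0.63. For the interaction of genotype and day, Cry1 had an unadjusted p of 0.0682 and an adjusted p of 0.9998 (edgeR), in a test that called no gene, which does not show that the difference was the same at all days. Marker sums of several cell types moved with genotype beside Cry1. At day 6 the summed hepatocyte markers were lower in HNKO livers (53228 to 98217 CPM, against 112517 to 125289 in WT). Alb (log2 fold change -0.67, adjusted p = 0.0138) and Ttr (-0.64, 0.0189), secreted proteins of hepatocytes, were the 2 of the 6 called at that day (edgeR). Both were lower, and 4.37% of all tested genes were called lower. The stellate markers (554 to 821 against 457 to 512 CPM) and the leukocyte markers (59.6 to 120 against 37.9 to 47.9 CPM) were higher in all HNKO livers of day 6 than in the WT livers, as were the cholangiocyte markers at every day. Of these lists, 2 of 6, 1 of 5 and 4 of 5 markers were called higher at day 6, against 8.42% of all tested genes (edgeR). At day 12 the hepatocyte, stellate and leukocyte sums overlapped between genotypes. Of their markers, 0 of 6, 3 of 6 and 1 of 5 were called at that day, against 7.82% of all tested genes. Of the stellate markers, Col1a1 (log2 fold change 2.03, adjusted p = 0.0200) and Col1a2 (1.31, 0.0379) were higher and Reln (-0.40, 0.0207) lower (edgeR). The leukocyte marker Ptprc was higher (0.60, adjusted p = 0.0380, edgeR). The part of these markers in the Cry1 difference was not tested. The genotypes also differed in where their libraries lay on the centred difference of Dbp and Arntl. At day 6 WT libraries were at -3.50, -2.52, 4.09 and 4.29 and HNKO libraries at -5.28, 1.38, 1.59, 2.10 and 3.31. At day 12 WT libraries were at -4.88, -3.99, -2.98, -2.71 and 4.49 and HNKO libraries at -1.97 to 3.38. The part of this position in the Cry1 difference was not tested either.

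At day 3, Dbp, Nr1d1, Per3 and Nr1d2 had lower values in HNKO than in WT livers, without passing the threshold in the fit of all groups. Dbp, the PAR bZIP activator of D-box genes, was at 5.09, 5.94, 4.93, 5.22 and 4.57 log2 CPM in WT and at 3.50, 3.29, 3.91, 4.06 and 3.22 in HNKO livers. Every HNKO library lay below every WT library, with means of 3.60 and 5.15. Nr1d1 was at 6.41, 6.12, 5.84, 5.84 and 5.94 in WT and at 5.51, 5.29, 5.45, 5.68 and 5.11 in HNKO livers, again without overlap. For Dbp and Nr1d1, the exact permutation test gave p = 0.00794, the smallest that 5 against 5 libraries allow. Libraries did not overlap, with HNKO lower, for 1.8% of all tested genes at day 3.

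Per3 was at 4.92, 5.67, 4.99, 5.07 and 4.45 in WT and at 3.71, 3.92, 4.27, 4.51 and 3.73 in HNKO livers at day 3. Nr1d2 was at 6.73, 6.92, 7.09, 7.05 and 6.45 in WT and at 6.20, 6.14, 6.20, 6.48 and 6.31 in HNKO livers. In both genes 4 of 5 HNKO libraries were below all WT libraries, and the exact permutation test gave p = 0.0159. Adjusted over the 40 exact tests of 10 genes at 4 days, these 4 values and that of Cry1 at day 6 were 0.127, and that of Cry1 at day 12 was 0.260.

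In the edgeR fit of all 8 groups, which shares 1 estimate of the spread, the day 3 log2 fold change was -1.59 ± 0.83 for Dbp (adjusted p = 0.271), -1.01 ± 0.71 for Per3 (0.442), -0.62 ± 0.26 for Nr1d1 (0.155) and -0.60 ± 0.25 for Nr1d2 (0.151). Fitted on the 10 libraries of day 3 alone, where 2.42% of all genes were called, all 4 were called with nearly the same fold changes. They were then -1.59 ± 0.24 for Dbp (adjusted p = 0.00971), -1.01 ± 0.21 for Per3 (0.0344), -0.62 ± 0.13 for Nr1d1 (0.0341) and -0.59 ± 0.12 for Nr1d2 (0.0332). The fits thus differed in SE and not in fold change. The 4 genes moved together across mice, with r from 0.652 for Nr1d1 with Nr1d2 to 0.988 for Per3 with Dbp. Their 4 calls are therefore not independent results. The hour of collection is not given, so a difference in hour between the groups cannot be told apart from one of genotype. WT and HNKO means differed by -1.95 and -1.27 for Dbp and by -0.85 and -0.47 for Nr1d1 within the lower and higher library numbers. Arntl, the activator opposed to Dbp across mice, had means of 4.21 in HNKO and 4.14 in WT livers at day 3, with a log2 fold change of 0.06 ± 0.59.

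At day 12, Dbp and Per3 had higher mean log2 CPM in HNKO than in WT livers, and whether they were called turned on 1 library. Dbp was at 1.57 to 3.20 in 4 of the 5 WT libraries and at 7.51 in library 16, while HNKO libraries ran from 3.64 to 6.69. The difference of the mean log2 CPM was 1.85 higher in HNKO livers, and the log2 fold change of edgeR, which compares mean counts, was 0.39 ± 0.77 (adjusted p = 0.803). Per3 was at 3.69, 3.16, 7.42, 3.56 and 2.88 in WT livers, again with library 16 apart, and had its lowest, median and highest HNKO values at 4.34, 5.85 and 6.95. Without library 16, where 5.99% of all genes were called, Dbp was higher in HNKO livers by 3.02 ± 0.72 (adjusted p = 0.0131, edgeR), Per3 was higher by 2.57 ± 0.62 (adjusted p = 0.0131) and Clock was lower, with a log2 fold change of -0.56 ± 0.16 (adjusted p = 0.0312). Cry1 was then not called. With library 16, Arntl (-1.04 ± 0.56, adjusted p = 0.253), Npas2 (-1.47 ± 0.68, 0.174) and Clock (-0.35, 0.294) had log2 fold changes below 0 and were not called, and Npas2 had an unadjusted p of 0.0378 (edgeR).

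At days 6 and 21 Cry1 at day 6 was the 1 call among the 10 genes. The log2 fold changes of the other 9 genes were -0.91 to -0.02 at day 6 and -0.36 to 0.22 at day 21. The lowest adjusted p of the 10 genes at day 21 was 0.579 (edgeR), and only 3 HNKO libraries entered there, which allow no exact permutation p below 0.0357. Npas2 rests on few reads, with a median count of 49 per library. Reads of Dbp and Nr1d1 could be shared with neighbours, since 18% of the exon bases of Dbp overlap Sphk2 and 8.5% of those of Nr1d1 overlap Thra, both on the opposite strand, and whether counting used strand is not given in the sources used here. Of the 51-base stretches of their transcripts, 16.2% for Dbp, 7.24% for Nr1d1 and 4.98% for Nr1d2 were shared with another gene. The test of the interaction of genotype and day called none of the 10 genes, and it called 0% of all tested genes by edgeR (4.76% at an unadjusted p under 0.05, 1 of the 10 genes).

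Across days within a genotype, Nr1d1 changed in both. The test of any difference between the 4 days called Nr1d1 alone of the 10 genes in WT livers, where 5.84% of all tested genes were called, and Nr1d1 alone in HNKO livers, where 7.9% were. The call in WT livers was lost without any 1 of WT libraries 8, 27 and 28 of day 6 and 19, 21, 39 and 41 of day 21, and that in HNKO livers held without any 1 library. Without WT library 16, 5 genes were called in WT livers (Clock, Per3, Nr1d1, Nr1d2 and Dbp, against 6.83% of all tested genes) and 3 in HNKO livers (Per3, Nr1d1 and Nr1d2, against 8.73%). In WT livers Nr1d1 was at 5.78, 6.10, 5.22 and 5.73 log2 CPM at day 6 and at 6.86, 6.43, 6.68, 6.79 and 7.18 at day 21. All day 21 libraries were above all day 6 libraries, and the rise was 1.07 ± 0.28 on the log2 scale (adjusted p = 0.0230, edgeR, with 4.02% of all genes called). WT Cry1 was lower at day 21 than at day 6, with a log2 difference of -0.77 ± 0.23 (adjusted p = 0.0487). In HNKO livers Nr1d1 was higher at day 12 than at day 3 by 0.99 ± 0.25 (adjusted p = 0.0288, edgeR, with 2.42% of all genes called). It was at 5.28 to 6.70 with a median of 6.52 at day 12, and library 35 alone lay within the day 3 values of 5.11 to 5.68. Since the hour of collection is not given for this time course, day and hour cannot be told apart.

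Other genes of the clock were read from lists chosen by name. Of 13 modulators and repressors, 1 was called at day 3 (background 4.66% of all tested genes), Sirt1, which encodes the NAD-dependent deacetylase, with a log2 fold change of -0.29 ± 0.09 (adjusted p = 0.0429, edgeR). At days 6, 12 and 21 none was called, against 12.8%, 7.82% and 3.12% of all tested genes. An unadjusted p under 0.05 was found for 7, 5, 1 and 3 of the 13 at the 4 days, against 20.9%, 26.6%, 24.5% and 18% of all tested genes. Over the mean of the days, 7 of the 13 were called, against 36.4% of all tested genes. Of these, 4 were lower, among them Cry2 (-0.30), Fbxl21 (-0.34) and Sirt1 (-0.20), and 3 higher (Csnk1e 0.20, Btrc 0.13, Timeless 0.23). Among further activators, Arntl2, the paralog of Arntl, was higher at day 12 (0.68 ± 0.22, adjusted p = 0.0478). For the mean, Arntl2 was higher by 0.58 and Rora was lower (-0.15). The median log2 fold change of the modulators over the mean of the days was -0.13 and that of all tested genes -0.01.

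Of 14 outputs of the liver clock, 1, 1, 2 and 0 were called at days 3, 6, 12 and 21, against 4.66%, 12.8%, 7.82% and 3.12% of all tested genes. An unadjusted p under 0.05 was found for 2, 3, 3 and 2 of them, against 20.9%, 26.6%, 24.5% and 18%. Elovl3, a fatty acid elongase, was lower at day 3 (-1.97 ± 0.56, adjusted p = 0.0368, edgeR), Rgs16, a regulator of G protein signalling, was lower at day 12 (-1.42 ± 0.36, adjusted p = 0.0154), and Tspan4 was higher at day 6 (0.94, adjusted p = 0.00543) and at day 12 (0.73). Over the mean of the days 5 of the 14 were called, a share close to the 36.4% of all tested genes. Of these, 4 were lower, Hlf (-0.51), which encodes a PAR bZIP factor like DBP, Rgs16 (-0.97), Elovl3 (-0.98) and Por (-0.67), the cytochrome P450 reductase, and Tspan4 was higher (0.61). The median log2 fold change of the 14 for the mean was -0.29. In the test across days, Elovl3 was called in WT livers, where 5.84% of all tested genes were. In HNKO livers, where 7.9% were, Tspan4 was called, as was Cry2 of the list of modulators and repressors.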

How the data were processed

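Total RNA of 40 whole livers had been extracted with RNeasy, depleted of ribosomal RNA, and made into TruSeq Stranded libraries. Per the labels, the authors aligned reads with STAR 2.7.2b to GRCm38 (mm10), counted them per gene with featureCounts 1.6.4 and used edgeR 3.26.0. The deposited table holds raw counts per gene (Ensembl identifiers). Symbols and positions were taken from the GENCODE annotation given for GRCm38, and promoters from RefSeq. Genes were kept by filterByExpr of edgeR 4.0.16 (R 4.3.3) with a minimum count of 10, a minimum total of 15 and a proportion of 0.7. TMM factors and a quasi-likelihood fit of 8 groups of genotype and day were used, with Benjamini-Hochberg adjustment over all tested genes and a threshold of 0.05. DESeq2 1.42.0 was an alternative. Values per library are log2 CPM after TMM with a prior count of 2. Single genes were compared per day by two-sided exact permutation tests of mean log2 CPM. Correlations used deviations from group means and 100000 permutations within groups. Intervals of fold changes use the normal approximation. The pipeline was tested on simulated counts.

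The 10 genes, the lists and the tests were chosen with earlier results of these data known. The 10 genes, the listed genes that passed a test, and the 5 genes most like Arntl and Dbp are named. HNKO libraries 17 and 18 of day 21, marked as failed in quality control, were left out except in 1 alternative. No 2 libraries of a group agreed within sampling noise (lowest chi-square per gene 14.0 over 74 pairs). Every count column belonged to a listed sample. Some listed genes that passed a test are not reported here. Other normalisations, filters, tools and libraries left out were tried. Counting error is small at these depths, Npas2 excepted, and the number of mice limits the precision.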

Additional observations from a re-analysis of the deposited data

Results flagged for a closer look

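In 14 of 70 combinations of gene and group with 4 to 10 libraries, the highest or lowest library stood apart from the rest by Dixon's criterion at the 95% level, which chance meets in about 1 in 20 groups, and the genes are correlated. WT library 16 of day 12 accounted for 6, with Arntl at 1.27, Clock at 5.20, Npas2 at -1.30, Per2 at 6.47, Per3 at 7.42 and Dbp at 7.51 log2 CPM. HNKO library 29 of day 6 accounted for 5, with Npas2 at 2.54, Per3 at 2.51, Nr1d1 at 3.80, Nr1d2 at 5.81 and Dbp at 1.35. The other 3 were Per2 in WT library 5 of day 3 (5.38), Cry1 in WT library 26 of day 3 (3.04) and Nr1d1 in HNKO library 35 of day 12 (5.28).

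The remaining values came from a library left out of all comparisons. In HNKO library 17 of day 21, which had failed quality control, Per1 was at 6.06 and Per2 at 5.50 log2 CPM, above the highest WT libraries of that day at 5.91 and 5.25. Both values were inside the range of the HNKO libraries kept at that day (4.76 to 6.10 for Per1, 4.59 to 5.74 for Per2). In libraries 17 and 18, Npas2 was at -3.76 and -2.96, below the WT range of -0.61 to 0.83, and Dbp was at 5.43 and 5.50, below the WT range of 5.82 to 6.59 in the same normalisation.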

How the results depend on the processing

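Apart from leaving libraries out, other settings gave the 50 fold changes of the 10 genes the same sign and side of the threshold in 412 of 435 cases, with 4 calls lost, 4 gained and 15 signs turned. Leaving out 1 library gave the same in 702 of 760 cases, and 22 of the 50 fold changes ever turned sign, none of them a called one. At day 3, 4 genes were called in the fit of the 2 groups of the day alone (2.42% of all tested genes), 2 without WT library 16 and HNKO library 29 together (7.11%, an alternative chosen after seeing the data) and 0 to 1 without 1 library (Nr1d1 without HNKO library 29, 6.54%). At day 12, 0 genes were called with no filter, with at least 10 counts in every library, with all 40 libraries or in the fit of the 2 groups alone (4.79%), where Cry1 lost its call, 4 without both libraries (7.22%) and 0 to 3 without 1 library (the 3 without library 16, 5.99%). Without both libraries, 2 genes were called for the mean (32.4% of all tested genes), 8 for day in WT (7.57%) and 4 for day in HNKO livers (7.12%). Leaving out 1 library gave 0 to 5 genes for day in WT and 1 to 3 in HNKO livers, the 5 and the 3 without library 16 (6.83% and 8.73%). Day in HNKO livers gave 2 genes with all 40 libraries and 2 with the library number range as a covariate. Exact permutation tests under 0.05 numbered 13 without both libraries and 5 to 13 without 1 library, the 13 without library 16.

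With the library number range as a covariate, log2 fold changes turned sign for Per2 at day 3 (-0.0136), Per3 (0.10), Nr1d1 (0.0068) and Dbp (0.17) at day 6, Arntl (-0.19), Clock (-0.17), Npas2 (-0.40), Per3 (0.24) and Dbp (0.34) at day 21, and Per1 (0.0222), Per2 (0.12) and Per3 (0.0397) for the mean. Nr1d1 at day 6 was 0.0116 with at least 10 counts in every library, and with all 40 libraries Clock was -0.0451 and Npas2 -0.46 at day 21. Leaving out 1 library moved the day 3 value of Arntl from -0.0823 to 0.18 and of Per2 from -0.20 to 0.49. At day 6 the ranges were -1.33 to 0.13 for Arntl, -0.25 to 0.0893 for Clock, -0.61 to 0.38 for Per1, -0.66 to 0.17 for Per3, -0.16 to 0.25 for Nr1d1, -0.31 to 0.10 for Nr1d2 and -0.69 to 0.29 for Dbp, and at day 12 -0.18 to 1.12 for Per2. At day 21 they were -0.53 to 0.53 for Arntl, -0.0532 to 0.0877 for Clock, -0.87 to 0.64 for Npas2, -0.41 to 0.28 for Per1, -0.16 to 0.40 for Per2 and -0.30 to 0.0193 for Nr1d2. For the mean they were -0.21 to 0.0472 for Per1, -0.18 to 0.17 for Per2, -0.37 to 0.23 for Per3 and -0.56 to 0.20 for Dbp. The causes were not tested. No paired analysis was possible because each library number occurs in 1 group only. The number of mice and an hour of collection that is not given limit what these comparisons can show.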

Other observations

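Of 6 glucocorticoid-responsive genes (Fkbp5, Tsc22d3, Sgk1, Zbtb16, Pdk4 and Mt2), read because several clock genes respond to this hormone, none was called between the genotypes by edgeR at days 3, 6, 12 and 21 or for the mean, against 4.66%, 12.8%, 7.82%, 3.12% and 36.4% of all tested genes. An unadjusted p under 0.05 was found for 0 of the 6 at each day, against 20.9%, 26.6%, 24.5% and 18% of all tested genes, and for 1 for the mean, against 44.8%. Their median log2 fold change by day was 0.14, -0.13, -0.24 and -0.04, against 0.01, -0.01, 0.00 and -0.01 over all tested genes. Mt2, which encodes a metallothionein, differed between days in HNKO livers (adjusted p = 0.0172, edgeR), where 7.9% of all tested genes did. The genes most like Cry1 in their deviations over the 38 libraries were Rcc1l (r = 0.696), Npr1 (0.694), Zfp869 (0.687), Thada (0.684) and Mul1 (0.684). These genes were chosen after their values were seen, and their r is a description.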
